A study of Mus musculus with 6 samples.

Results

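Hsph1, Chordc1, Hspe1 and Zfand2a are 4 genes of protein folding and protein quality control, described here among 18572 genes measured on microarrays in NIT-1 cells. NIT-1 is a line of mouse pancreatic beta cells, derived from an insulinoma of a mouse whose viral T antigen was driven by an insulin promoter, so that all samples share that transgene and come from 1 line. After 24 h in plates, cells were kept for another 24 h either in medium alone (control, 3 arrays) or in medium with 4 µmol/L CdSO4 (cadmium, 3 arrays). Cadmium was given to bring about oxidative damage, per the series' design, and the comparison asks which transcripts differ after it. Each group's samples are labelled as biological replicates, with no word on how the cultures were kept apart, so that a p-value reflects the spread of these samples, which may be technical. Values are log2 signals as deposited, summarised as means with SD over the 3 arrays of a group (n = 3), and a change is cadmium minus control on that scale. Precision is limited by having 3 arrays in each group.

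The 4 genes were chosen by name from the cadmium and control signals of these same 6 arrays, each through the brightest probe that carries a single gene symbol, and each had 1 such probe. Their own difference between the groups is therefore a description, and no test is given for it. The set was put together as Hsp110, Hsp90 co-chaperone and chaperonin genes. By background knowledge Hsph1 and Chordc1 fit the first pair of terms and Hspe1 is the partner of the mitochondrial chaperonin, whereas Zfand2a belongs to none of these classes and is an AN1-type zinc finger gene.

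Cells answer an excess of unfolded protein by activating heat shock factor 1, a transcription factor that binds as a trimer to inverted repeats of the letters GAA and TTC, called heat shock elements, near the starts of chaperone genes. Hsph1 encodes an Hsp110 chaperone, which exchanges the nucleotide on Hsp70 and helps it release and dissolve aggregated clients. Chordc1, also called morgana, encodes a protein with cysteine- and histidine-rich domains that assists Hsp90. Hspe1 encodes Hsp10, the lid of the mitochondrial folding chamber whose walls are made of Hsp60, the product of Hspd1. Zfand2a encodes AIRAP, an arsenite-inducible protein that binds the proteasome. Cadmium binds thiols and is a classical inducer of the heat shock response in cultured cells.

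Across all genes, 1198 rose and 1078 fell with cadmium at a limma adjusted p under 0.05, which is 12.3% of genes tested in either direction, 6.45% higher and 5.8% lower. Dropping control replicate 1 left 594 higher and 579 lower genes, dropping control replicate 2 left 610 and 531, dropping cadmium replicate 2 left 594 and 538, and dropping cadmium replicate 3 left 613 and 552. Of the called genes 52.6% were higher as deposited and 38.4% with each array centred on its median. As a bound for background, the 95th percentile of the 5222 negative controls was taken on each array and averaged, giving 6.18. Of 16 beta cell markers 8 were measured under a single name and 0 had a group mean above that bound. The measured markers of the labelled cell type thus did not pass it, but the bound is strict. Over all genes 2430 of 18572 reached it in their brighter group. Ins2 was at 5.27 ± 0.10 in control and 5.29 ± 0.04 in cadmium, where array medians over genes averaged 4.14 and 4.18. Other beta cell markers were not raised like Ins2. Pdx1 lay close to those medians, with means of 4.25 (control) and 4.28 (cadmium). Below the medians were Slc2a2, with 3.76 (control) and 3.82 (cadmium), as well as Iapp, with 1.9 (control) and 1.76 (cadmium). Of the 7 stromal and endothelial markers 4 were measured. Among these Col3a1 alone reached the bound, at 9.07 ± 0.13 in control and 8.06 ± 0.17 in cadmium, and the summed linear signal of the 4 ranged from 578.5 to 674.1 in control and from 307.0 to 385.6 in cadmium arrays. The summed ranges were 136.7 to 146.8 and 148.8 to 150.3 for beta cell markers, 27.1 to 27.9 and 26.1 to 27.1 for 2 markers of other islet cells, 32.2 to 33.6 and 34.8 to 39.3 for 2 exocrine markers, and 31.7 to 32.7 and 31.7 to 33.1 for 3 immune markers. The part of these marker differences in the changes below was not tested, and in RNA from whole cultures fewer cells of a type and less RNA per cell cannot be told apart.

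The promoters of the 4 genes are shown for their heat shock element letters, which were not read in choosing the genes. The choice by name did favour chaperone genes, near whose starts such elements are known, so their presence here is no independent result. The windows are RefSeq sequences of assembly GRCm38.p6 from 250 bases before to 50 bases after each annotated transcription start, and positions count from that start. Capitals mark each run of the units GAA and TTC in alternation with 2 bases between them, written 5′ to 3′ on the gene's strand.
Hsph1 upstream, chr5:149636352-149636476, minus strand, -140 to -16: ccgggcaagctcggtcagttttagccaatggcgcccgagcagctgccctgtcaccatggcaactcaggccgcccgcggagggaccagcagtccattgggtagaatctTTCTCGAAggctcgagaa
Hsph1 after the start, chr5:149636287-149636310, minus strand, 27 to 50: atgctgcagaTTCTGGAAAGTTCt
Chordc1, chr9:18292207-18292285, plus strand, -60 to 19: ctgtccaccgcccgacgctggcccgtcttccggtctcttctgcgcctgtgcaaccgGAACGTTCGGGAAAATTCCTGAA
Hspe1, chr1:55088028-55088097, plus strand, -120 to -51: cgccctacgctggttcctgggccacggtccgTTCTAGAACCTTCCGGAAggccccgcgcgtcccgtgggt
Zfand2a, chr5:139484621-139484701, minus strand, -210 to -130: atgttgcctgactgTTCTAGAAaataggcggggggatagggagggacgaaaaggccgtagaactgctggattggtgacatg

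The 4 promoters differed in how many units stood in a row. Chordc1 held a run of 5 units over 23 bases, GAACGTTCGGGAAAATTCCTGAA, from -4 to 19 across its start, with a separate pair of units at 34 to 41. The search for GAANNTTCNNGAANNTTCNNGAA on both strands found 1 such window among 32851, which is 0.00304%, and that window is the one of Chordc1. Hspe1 held a run of 4 units over 18 bases, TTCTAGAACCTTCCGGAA, at -89 to -72. Runs of 4 units in the order of Hspe1, TTCNNGAANNTTCNNGAA, were in 0.0152% of windows, and those in the other order, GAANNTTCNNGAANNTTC, in 0.0122%.

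Hsph1 held a pair, TTCTCGAA, at -33 to -26 and a run of 3 units, TTCTGGAAAGTTC, at 37 to 49, counted from the upstream one of its 2 annotated starts. Measured from its other start the same letters lay at -54 to -47 and at 16 to 28, so the run of 3 lies in transcribed sequence by either start. Runs of 3 units, GAANNTTCNNGAA on either strand, were in 0.603% of windows. Zfand2a held a single pair, TTCTAGAA, at -196 to -189. Pairs were common, with GAANNTTC in 7.86% and TTCNNGAA in 8.52% of all windows, and the longer runs contain these pairs.

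The run of Hspe1 is shared with the neighbouring gene Hspd1, which is read from the opposite strand. The same 18 bases, chr1:55088059-55088076, lie at -144 to -127 from the second annotated start of Hspd1. That start is 216 bases from the start of Hspe1, with the run between them, and the other annotated start of Hspd1 lies 95 bases past the Hspe1 start, inside the Hspe1 gene. The pair of genes that form the mitochondrial chaperonin thus had 1 heat shock element run between divergent annotated starts.

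Other regulatory letters were searched on both strands of the same windows. The CCAAT box, CCAAT, stood 3 times in Zfand2a and 2 times in Hsph1, and in 37.4% of all windows. The core of the metal response element, TGCGCNC, stood 1 time in Hspe1 at -239 to -233 and in 15.4% of all windows, while TGCACNC, in 12.6% of windows, was in none of the 4. The core of the antioxidant response element, TGACNNNGC, stood 2 times in Hsph1 and in 12.4% of all windows. These are matches of letters in a window of 300 bases and say nothing of binding.

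**Figure D1:**
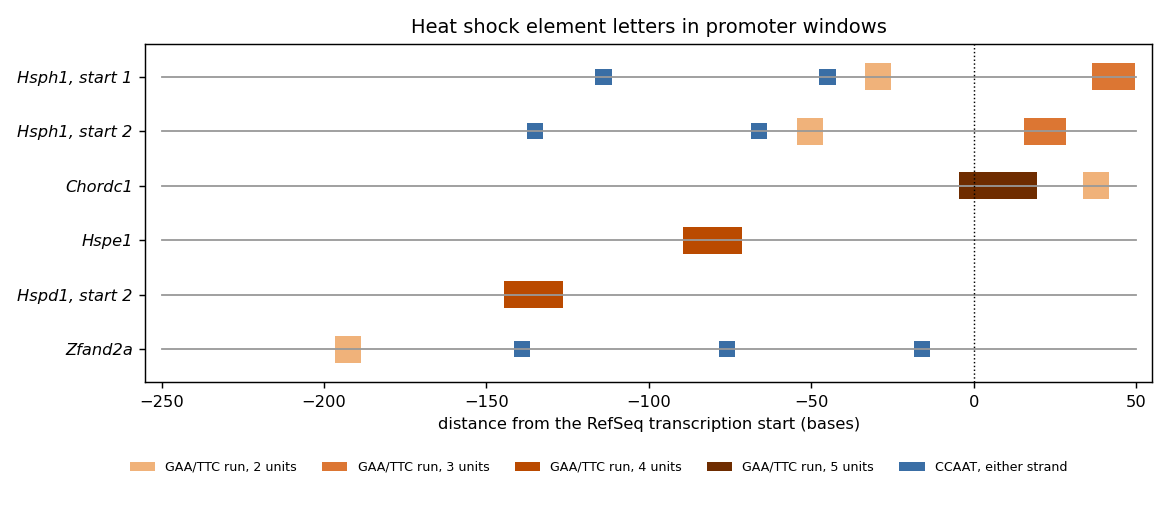
Position of heat shock element letters (orange to brown bars, darker for more units in a row) and CCAAT boxes (blue) in promoter windows, as distance in bases from the RefSeq transcription start, which is at 0. The run of 5 units lies across the start of Chordc1, the run of 4 lies at -89 to -72 in Hspe1 and at -144 to -127 from the second start of Hspd1, and Zfand2a has 1 pair at -196 to -189.

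Among the 4 genes, Hsph1 had the largest difference between the groups. Its log2 signal was 5.30, 5.52 and 5.51 on the control arrays and 8.23, 8.62 and 8.65 on the cadmium arrays. All control values lay below the negative control percentile of their own array and all cadmium values above it, and the lowest cadmium value exceeded the highest control value by 2.71. The change was 3.06, from 5.44 ± 0.12 to 8.50 ± 0.24. Since the control mean lay below the bound, the ratio is given as at least 4.97-fold, with each control array set to no less than its negative control percentile.

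Chordc1 measured 5.75, 5.76 and 6.05 on the control arrays and 7.93, 8.35 and 8.53 on the cadmium arrays. Control replicate 3 was the highest control value, and all 3 control values were below the negative controls of their arrays. The groups were 1.88 apart at their nearest values, and the change was 2.42, from 5.85 ± 0.17 to 8.27 ± 0.31, a ratio of at least 4.24-fold. Hsph1 and Chordc1, which by background knowledge act on Hsp70 and Hsp90, thus shared a control signal within the range of negative controls and a cadmium signal well above it.

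Zfand2a measured 6.44, 6.37 and 6.24 on the control arrays and 7.41, 7.87 and 7.57 on the cadmium arrays. Every value was above the negative controls of its array, and cadmium replicate 2 was the highest. Its change was 1.27, from 6.35 ± 0.10 to 7.62 ± 0.23, which is 2.41-fold.

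Hspe1 measured 6.74, 6.68 and 6.77 on the control arrays and 7.57, 7.81 and 7.80 on the cadmium arrays. It varied least of the 4 within both groups, with an SD of 0.05 in control and 0.13 in cadmium. The lowest cadmium value was 0.81 above the highest control value, and the change was 1.00, a ratio of 2.0-fold.

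In all 4 genes the cadmium arrays lay above the control arrays without overlap, as they did for 22.8% of all genes. Cadmium replicate 1 gave the lowest cadmium value in each of the 4, below the mean of the other cadmium arrays by differences of -0.41 in Hsph1, -0.51 in Chordc1, -0.23 in Hspe1 and -0.31 in Zfand2a. It was also the lowest cadmium array in 56.1% of all genes called higher and in 36.4% of all genes. Without it the changes were 3.19, 2.59, 1.08 and 1.37. The control arrays had no such shared order, since control replicate 3 was highest for Chordc1 and Hspe1 and lowest for Zfand2a.

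**Figure D2:**
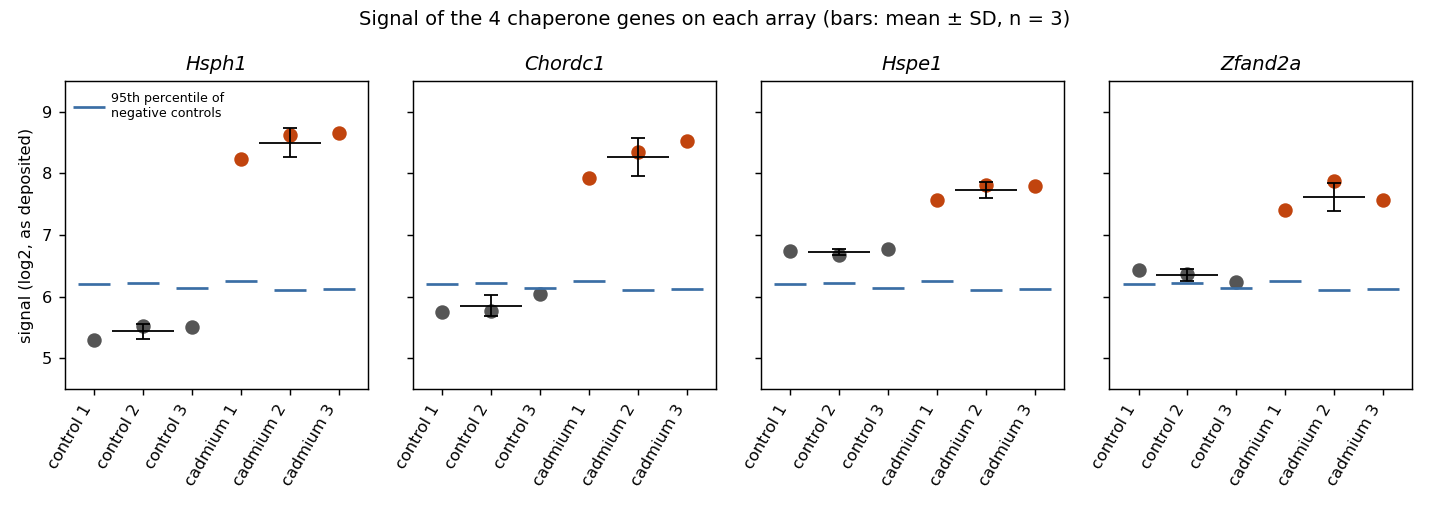
Log2 signal of the 4 genes on each of the 6 arrays (points; control in grey, cadmium in red) with the group mean ± SD (n = 3) and, as a blue dash, the negative control percentile that each array gave. The control points of Hsph1 and Chordc1 lie below the dash of their array and those of Hspe1 and Zfand2a above it, and cadmium replicate 1 is the lowest cadmium point in all 4 panels.

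The profiles of the 4 genes were set against each other as differences from each gene's own control mean. The root mean square distance over the 6 arrays was 0.22 between Hspe1 and Zfand2a and 0.46 between Hsph1 and Chordc1, and between 0.84 and 1.46 for the other pairs. The 4 thus formed a pair with large and a pair with smaller changes.

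By the same distance, the genes with the most similar profiles were taken from 9531 others at or above the median level in their brighter group. For Hsph1 these were Chordc1, at 0.46, and the metallothionein gene Mt2 and the haem oxygenase gene Hmox1, both at 0.66. Mt2 went from 7.94 ± 0.28 to 10.09 ± 0.11 and Hmox1 from 5.41 ± 0.26 to 7.58 ± 0.26. For Chordc1 the nearest were 3 annotated pseudogenes, Gm7816 and Gm15542, both at 0.23, and Gm6335 at 0.25. Gm15542 measured 8.36, 8.10 and 8.80 on the control arrays and 10.13, 10.77 and 10.82 on the cadmium arrays, so that, as in Chordc1, control replicate 3 was the highest control array and cadmium replicate 1 the lowest cadmium array. Picking by distance over these same arrays favours such a likeness, so it is no separate result.

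The genes nearest to Zfand2a were Gtf2h1, a subunit of the general transcription factor TFIIH, at 0.09, the small nuclear RNA gene Gm26107 at 0.14 and the Hspe1 pseudogene Hspe1-ps6 at 0.15. Those nearest to Hspe1, all at 0.05, were Prkar1b, a regulatory subunit of protein kinase A, and the small nuclear RNA genes Gm26435 and Gm22974. The distance takes in the size of the change, so genes with no known relation can lie close together.

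Each of the 4 genes was then set beside its relatives and partners. Their lists were drawn up with earlier results of these data known, so the counts of calls in them are a description. In the Hsp110 family, Hspa4l rose and Hyou1 did not pass the test, and Hspa4 was not analysed here. Hspa4l, a cytosolic Hsp110 chaperone expressed at high level in testis, measured 5.54, 5.52 and 5.73 in control and 5.96, 6.44 and 6.50 in cadmium. Its change was 0.70 ± 0.14 (SE; limma adjusted p = 0.023), and the ratio at least 1.08-fold. This call was lost, at adjusted p of 0.077 to 0.085, without control replicate 1 or 2 or cadmium replicate 2 or 3. Hyou1, the Hsp110 chaperone of the endoplasmic reticulum, measured 6.53, 6.58 and 6.47 in control and 7.03, 6.21 and 6.13 in cadmium (limma adjusted p = 0.87). Its cadmium arrays lay on both sides of the controls, and without cadmium replicate 1 it was lower, with a change of -0.36 ± 0.06 (SE; limma adjusted p = 0.0167).

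Among the Hsp70 chaperones that Hsp110 proteins serve, 4 of 11 were measured under a single name. Hspa8, the constitutive Hsp70, had 12.59 ± 0.02 in control and 12.87 ± 0.09 in cadmium and rose, with a change of 0.28 ± 0.06 (SE; limma adjusted p = 0.027). Its value came from a cluster whose name places it on chromosome 6, while RefSeq places Hspa8 on chromosome 9, so the signal may belong to a copy. The call was lost without any 1 control array or without cadmium replicate 2 or 3, at adjusted p of 0.052 to 0.099, after quantile normalization, where the change was 0.11, and with the trended, robust variance fit, at 0.161. Hspa5, the Hsp70 of the endoplasmic reticulum, was at 6.24 ± 0.05 and 6.37 ± 0.22, and like Hyou1 it was highest on cadmium replicate 1, at 6.62 against 6.23 and 6.26.

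Of the 6 measured Hsp70 exchange factors outside the Hsp110 family, 2 rose and 0 fell, where 6.45% of all genes rose and 5.8% fell. Bag3, which links Hsp70 to small heat shock proteins and autophagy, rose from 5.54 ± 0.08 to 6.97 ± 0.30, a change of 1.44 (limma adjusted p = 0.0017). Bag1, which links Hsp70 to the proteasome, rose from 6.01 ± 0.17 to 6.37 ± 0.05 (limma adjusted p = 0.043), a call lost without any 1 array except control replicate 3, at adjusted p of 0.071 to 0.13, and with arrays centred on their medians. Hspbp1 was at 7.04 ± 0.09 and 7.17 ± 0.03 and did not pass.

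Of the 13 other Hsp90 co-chaperones measured, 1 rose and 1 fell, 7.69% each way, near the shares of 6.45% and 5.8% over all genes. Fkbp4, a peptidyl-prolyl isomerase of the steroid receptor complex, rose from 6.61, 6.51 and 6.63 in control to 6.93, 7.16 and 7.12 in cadmium. The arrays did not overlap, and the change was 0.48 ± 0.07 (SE; limma adjusted p = 0.008), a ratio of 1.40-fold. Itgb1bp2, the muscle protein melusin and the closest relative of Chordc1, fell from 4.15 ± 0.08 to 3.77 ± 0.09 (limma adjusted p = 0.015), both below the bound. That call was lost without control replicate 2 or cadmium replicate 2, at 0.058 and 0.054. The median change of the 13 was 0.03, against 0.04 over all genes tested. Nudc was at 6.62 ± 0.05 and 6.73 ± 0.11, and Cdc37, which delivers kinases to Hsp90, at 6.57 ± 0.08 and 6.79 ± 0.06, and neither passed (limma adjusted p = 0.34 and 0.065), although Cdc37 was called higher after quantile normalization, at 0.0299. The 4 Hsp90 genes themselves and Sugt1 were not analysed here, and of 30 co-chaperone entries 16 were not measured.

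The partner of Hspe1 rose with it. Hspd1, encoding Hsp60, measured 7.53, 7.52 and 7.51 in control and 8.17, 8.45 and 8.45 in cadmium. Its control arrays were within 0.02 of each other, and, as in Hspe1, cadmium replicate 1 was the lowest cadmium array. The change was 0.84 ± 0.08 (SE; limma adjusted p = 0.0017), a 1.79-fold ratio beside the 2.0-fold of Hspe1, and it stayed called under each alternative, with adjusted p from 0.0004 to 0.012. Clpx, the unfoldase of a mitochondrial matrix protease, fell from 6.41 ± 0.11 to 5.90 ± 0.07 (limma adjusted p = 0.0062). Of the 9 measured genes of mitochondrial folding and proteolysis besides Hspe1, these were the 1 that rose and the 1 that fell, 11.1% each way beside the same background of 6.45% and 5.8%, and the median change was -0.05. Grpel1, the exchange factor of the mitochondrial Hsp70, was at 4.93 ± 0.06 and 5.11 ± 0.07, and Yme1l1, a protease of the inner membrane, at 6.36 ± 0.15 and 6.21 ± 0.04.

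The cytosolic chaperonin, a separate folding chamber, had 5 of 16 subunits and prefoldin genes measured and 0 past the threshold in limma. Among all genes 6.45% rose and 5.8% fell, so few calls are due in 5 genes. At an adjusted p of 0.050 Cct3 was just outside, with 6.41 ± 0.10 in control and 6.67 ± 0.07 in cadmium, and after quantile normalization inside at 0.0301, and Cct7 was at 6.72 ± 0.20 and 7.02 ± 0.07. The median change of the 5 was 0.21, against 0.04 over all genes tested.

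In the AN1 zinc finger family of Zfand2a, 4 relatives were measured, of which 0 rose and 1 fell, beside 6.45% higher and 5.8% lower among all genes. The closest, Zfand2b, encodes another proteasome-associated protein and was at 5.59 ± 0.04 and 5.67 ± 0.06 (limma adjusted p = 0.43), below the bound in both groups. Zfand6 measured 7.45, 7.48 and 7.53 in control and 7.11, 7.05 and 7.19 in cadmium. All its cadmium values were below all control values, and the change was -0.37 ± 0.06 (SE; limma adjusted p = 0.0077), a ratio of 1.30-fold in the direction opposite to Zfand2a. Among 9 measured genes of the ATPase p97 and its cofactors, which hand substrates to the proteasome, Ubxn4 and Ubxn8 rose by 0.31 each (limma adjusted p = 0.013 and 0.012). Plaa, which binds ubiquitin, fell from 5.66 ± 0.07 to 5.32 ± 0.03 (limma adjusted p = 0.0094). The Ubxn4 call was lost without control replicate 1 or 2 or cadmium replicate 3, and the Ubxn8 call without cadmium replicate 2 or 3, at adjusted p of 0.05 to 0.057. Vcp, the ATPase itself, was at 8.47 ± 0.08 and 8.39 ± 0.02 and did not pass, but was called lower, at -0.26, after quantile normalization (limma adjusted p = 0.0197).

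**Figure D3:**
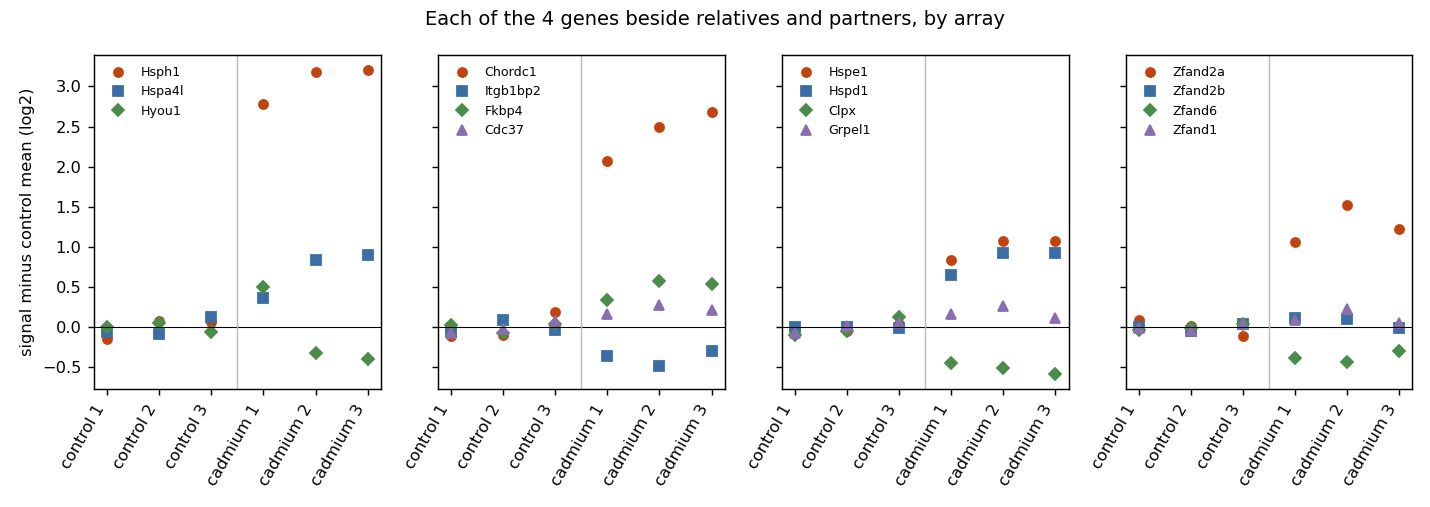
Log2 signal minus the gene's control mean (y axis) on each of the 6 arrays (x axis) for each of the 4 genes (red circles) and relatives or partners. Hspd1 lies close to Hspe1 on every array, Hspa4l lies above 0 in cadmium, Hyou1 is above 0 on cadmium replicate 1 and below it on the other cadmium arrays, and Itgb1bp2, Clpx and Zfand6 lie below 0 in cadmium.

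The transcription factors of the heat shock response showed smaller differences, and Hsf1 was not analysed here. Hsf2 fell from 5.12, 5.05 and 5.09 to 4.77, 4.74 and 4.85, a change of -0.30 ± 0.05 (SE; limma adjusted p = 0.013), with both groups below the bound. Without control replicate 1 or cadmium replicate 2 the call was lost, at adjusted p of 0.057 and 0.056. Hsf4 and Hsbp1, a small protein that binds heat shock factor trimers, were at 5.58 ± 0.06 and 5.66 ± 0.05 and at 6.87 ± 0.09 and 7.01 ± 0.10, and did not pass.

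Small heat shock proteins and J-domain proteins, which hand clients to Hsp70, rose in 7 of 14 measured cases and fell in 0, against 6.45% higher and 5.8% lower over all genes. Dnaja4 went from 6.46 ± 0.03 to 7.41 ± 0.07 (limma adjusted p = 0.00092), Cryab, encoding alpha-B crystallin, from 5.98 ± 0.14 to 6.63 ± 0.09 (limma adjusted p = 0.0039), and Dnajb1, Hspb1 and Hspb8 changed by 1.40, 2.01 and 1.37. Dnaja2 and Dnajb2 completed the 7, at 0.55 ± 0.11 and 0.22 ± 0.05 (SE). The Dnaja2 call was lost without control replicate 1 or 2 or cadmium replicate 2 or 3, and that of Dnajb2 without any 1 array, at adjusted p of 0.068 to 0.078 and 0.057 to 0.097.

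Over all these lists together, 15 of 69 measured genes other than the 4 rose, which is 21.7% against 6.45% of all genes, and 5 fell. The median change was 0.11 against 0.04. The count of higher genes was 9 without control replicate 1, control replicate 2 or cadmium replicate 2 and 8 without cadmium replicate 3, and the count of lower genes was 3 without cadmium replicate 2. Of the 15 genes that rose, cadmium replicate 1 was the lowest cadmium array in 13. Another 67 entries of the lists were not analysed here. The base of 6.45% is not matched for signal. Of the 69 genes 33 reached the bound in their brighter group, against 2430 of 18572 over all genes. With only genes at or above the median level fitted, 1110 rose and 1173 fell, among them 18 and 5 list genes. That fit held fewer genes, so its base share of higher genes was above 6.45%, and shares for it were not worked out. The shares set beside each list above are likewise not matched for signal.

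**Figure D4:**
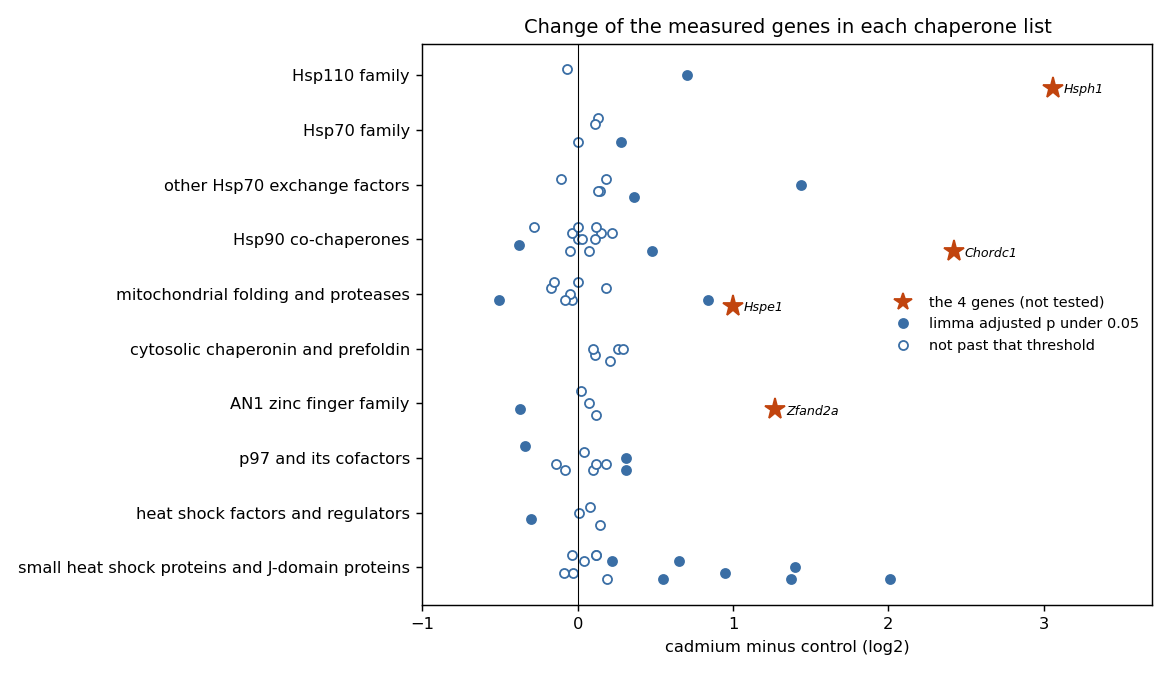
Change (cadmium minus control, log2) of every measured gene in each list, with the 4 genes as stars and other genes as circles, filled where limma gave an adjusted p under 0.05. The places of the 4 stars follow from their choice on this change, and the list of small heat shock and J-domain proteins has 7 filled circles, all right of 0.

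Copies of Hspe1 elsewhere in the genome bear on how its signal is read. The array had separate clusters for 4 annotated Hspe1 pseudogenes, found by name after the values had been seen. Hspe1-ps3, on chromosome 5, measured 6.73, 6.58 and 6.92 in control and 7.82, 7.63 and 7.93 in cadmium, a change of 1.04 beside the 1.00 of Hspe1. Hspe1-ps6, on chromosome 4, changed by 1.26, Hspe1-ps5, on chromosome 2, by 0.86, and Hspe1-ps4, on chromosome 4, by 0.61. The groups did not overlap in any of the 4 copies, as in 22.8% of all genes in this direction, and the control means of all but Hspe1-ps3 were below the bound. The Hspd1 pseudogene Hspd1-ps4 changed by 0.67, beside 0.84 in Hspd1. No other gene had values identical to any of the 4 genes. Whether probes of Hspe1 and its copies read the same RNA was not tested, so the value of Hspe1 is uncertain to that extent.

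The genomic neighbours of the 4 genes were also examined, taking the 3 nearest protein-coding genes on either side in RefSeq. Of 24 neighbours 21 were measured, and 6 rose and 1 fell. Apart from Hspd1, 5 of 20 rose, against 6.45% of all genes. On the side of the Hsph1 promoter, B3glct was not analysed here, and the next genes, Rxfp2 and Fry, rose. Rxfp2, a relaxin family receptor, went from 3.32 ± 0.06 to 4.33 ± 0.14, a change of 1.01 ± 0.08 (SE; limma adjusted p = 0.0015), and Fry, a microtubule-binding protein, from 4.38 ± 0.04 to 4.81 ± 0.02 (limma adjusted p = 0.0024). Both calls stayed under each alternative, and all these levels were below the bound. On the other side Wdr95 and Tex26 did not pass, and Medag was higher by 0.24 ± 0.05 (SE; limma adjusted p = 0.028), a call lost without any 1 array except cadmium replicate 1, at adjusted p of 0.063 to 0.099, and after quantile normalization.

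Beside Hspe1 and Hspd1, Coq10b, of coenzyme Q function in mitochondria, rose from 4.11 ± 0.07 to 4.42 ± 0.04 (limma adjusted p = 0.014) and Mob4 from 5.21 ± 0.05 to 5.55 ± 0.13 (limma adjusted p = 0.033). The Coq10b call was lost without control replicate 1 or 2 or cadmium replicate 2, at adjusted p of 0.0593 to 0.0615. That of Mob4 was lost without control replicate 1 or 2 or cadmium replicate 2 or 3, at 0.0882 to 0.107, and with arrays centred on their medians. Among the 6 neighbours of Chordc1 only Slc36a4, an amino acid transporter gene, passed, falling from 5.53 ± 0.10 to 5.12 ± 0.08 (limma adjusted p = 0.012). Of the 4 measured neighbours of Zfand2a 0 passed in limma.

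Heat shock element letters were then compared with the changes of all genes that had both a promoter window and a measurement, 11297 in number, of which 4.75% rose and 7.44% fell. Runs of at least 3 units were present in 80 of them, among them Hsph1, Chordc1 and Hspe1. The other 77 had 7 genes that rose and 7 that fell, 9.09% each, with a median change of 0.021 against 0.034 over all. These 77 include Hspd1, which shares its run with Hspe1 and so is not independent of the 4. With arrays centred on their medians 3 rose and 10 fell. Dropping control replicate 1 left 3 in each direction, as did dropping either of cadmium replicates 2 and 3, while dropping control replicate 2 left 3 and 4, dropping control replicate 3 left 4 and 6, and dropping cadmium replicate 1 left 10 and 7. Of the 7 that rose, Hspd1 and Uchl1, a neuronal deubiquitinase, at 6.81 ± 0.02 and 7.11 ± 0.12, were above the bound, and the other 5 were below it in both groups, among them Prol1, at 4.47 ± 0.08 and 4.96 ± 0.06 (limma adjusted p = 0.0036). The Uchl1 call (limma adjusted p = 0.033) was lost without any 1 array except cadmium replicate 1, at 0.074 to 0.11. It was also lost with arrays centred on their medians. Sec62, of protein import into the endoplasmic reticulum, fell from 8.34 ± 0.07 to 7.71 ± 0.07 (limma adjusted p = 0.0017).

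Runs of at least 4 units were present in 6 measured genes. These were Chordc1, Hspe1, Hspd1, Arpc2, Fam149a and Kctd18, of which Hspe1 and Hspd1 hold the same run. Arpc2, of the actin-nucleating Arp2/3 complex, was at 8.61 ± 0.07 and 8.87 ± 0.10 (limma adjusted p = 0.06), and the changes of Fam149a and Kctd18 were 0.08 and -0.00. Fam149a, at 4.03 and 4.11, and Kctd18, at 3.58 in both groups, stayed below the bound. Chordc1, chosen on its change, started nearer to the bound, at 5.85, so its rise above it is no measure for these genes. A change at their lower level may have been missed. Of 1737 genes with a pair of units only, other than Zfand2a, 5.24% rose and 5.07% fell, and of 9479 genes with no pair 4.59% rose and 7.86% fell. These differences between classes were not tested.

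**Figure D5:**
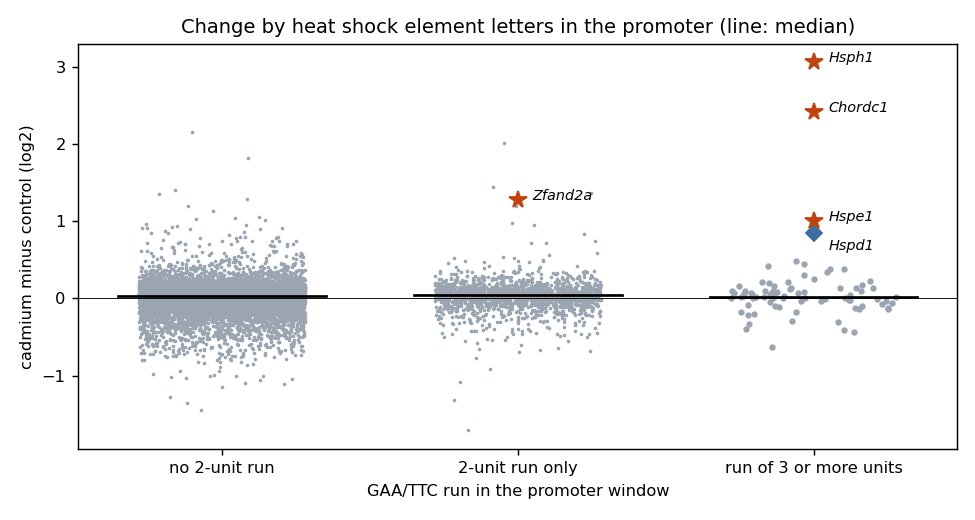
Change (cadmium minus control, log2) of 11297 genes by the longest run of GAA and TTC units in the promoter window (dots, spread sideways at random; line, median without the 4 genes), with the 4 genes as red stars and Hspd1 as a blue diamond. The medians lie near 0 in all classes, and the height of the 4 stars follows from their choice on this change and shows nothing about the classes.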

How the data were processed

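Total RNA was labelled with biotin, per the labels, and read on 6 arrays. The log2 values were used as deposited by the authors, 1 per transcript cluster or control probe. The log2 scale is inferred from their range, and no source used here states the base, background correction, normalization or software. Folds therefore hold only if the base is 2. The table held 39746 clusters and 6732 control probes, and 0 columns of values without a sample. Clusters with 1 platform symbol (18801; 1344 had several and 19601 none) were named, with symbols updated through RefSeq GRCm38.p6, and the brightest stood for each of 18572 genes, of which 159 had over 1. Of the 140 genes in the lists 73 were measured, and promoter windows matched 11297 genes. Chip coordinates were not used.

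Group was the only term in limma 3.58.1 (R 4.3.3, lmFit and eBayes, Benjamini-Hochberg over all genes, two-sided). Array medians of all clusters averaged 3.34 in control and 3.39 in cadmium (exact permutation p = 0.1, two-sided, the smallest that 3 against 3 allows). Genes named are the 4, fixed relatives, up to 6 called genes per list with the lowest adjusted p and the brightest uncalled one, and the 3 nearest profiles of each of the 4. Neighbours, pseudogenes, further uncalled relatives and genes picked by promoter letters were added after values were seen. The 4 genes and the lists were chosen with earlier results of these data known. Steps were tested on simulated data. Figures used matplotlib 3.10.9.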

Additional observations from a re-analysis of the deposited data

How the results depend on the processing

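The changes of the 4 genes kept their direction, and moved by less than the pooled SD within groups, under array centring, quantile normalization and array weights. Each of the 4 had 1 probe, so taking the mean of a gene's probes could not alter them. With 3 arrays in a group, leaving out 1 cannot move a change by as much as the pooled SD, so for that only the ranges are given. Leaving out 1 array gave 2.98 to 3.19 for Hsph1, 2.29 to 2.59 for Chordc1, 0.96 to 1.08 for Hspe1 and 1.14 to 1.37 for Zfand2a. Counts of called genes moved more. Leaving out 1 array gave 594 to 1312 higher and 531 to 1040 lower genes, and 8 to 16 higher and 3 to 7 lower list genes. At an adjusted p under 0.01 there were 444 higher and 415 lower genes, and 8 higher and 3 lower list genes. Array weights gave 1847 higher genes. With the replicate number as a block there were 729 higher and 643 lower genes, and 10 higher and 4 lower list genes. No pairing by number was visible, since deviations of same-numbered samples correlated across genes at -0.108, 0.053 and -0.111. The labels do not say whether such samples were handled together. Of 20 called list genes 9 lost the call without at least 1 array, and 11 did not. Keeping only clusters named for the RefSeq chromosome, an alternative chosen after seeing the data, left 14 higher and 5 lower list genes. Of the 69 list genes 33 had a mean above the background bound in their brighter group, and for the others the signal limits what a change can show.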
